A study of Mus musculus with 6 samples.

Results

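Lsd1 binding was examined at the 6 mouse genes that carry a C/EBP name, Cebpa, Cebpb, Cebpd, Cebpe, Cebpg and Cebpz, out of 26180 genes with a curated RefSeq transcript. Every deposited Lsd1 peak was taken whose centre lay within 30 kb of the RefSeq span of one of these genes on the mm10 assembly, which gave 22 of 43426 peaks in wild-type (WT) C2C12 cells in myogenic medium, 14 of 18893 in WT cells in adipogenic medium, and 24 of 33533 in LSD1(OE) cells in adipogenic medium. C2C12 is a line of mouse myoblasts that forms myotubes at low serum and takes on adipocyte features with an adipogenic cocktail. All cells were at day 1 of differentiation and passages 3 to 5. The myogenic medium held 2% horse serum, and the adipogenic medium held 10% FCS with rosiglitazone (1 μM), T3 (1 nM), insulin (850 nM), dexamethasone (5 μM), isobutylmethylxanthine (0.5 mM) and indomethacin (125 nM). The LSD1(OE) cells are a stable line that was made with lentivirus, selected with G418, and expresses Flag-tagged LSD1 from a promoter switched on by doxycycline, which was given before and during differentiation. G418 and doxycycline are not listed for the WT cells, so the level of LSD1, the selected line and the agents cannot be told apart. Between the LSD1(OE) and myogenic libraries the medium differs as well, and it cannot be told apart from these either. Each condition had 1 ChIP library and 1 input, so every difference below is one between single libraries and no test between conditions could be made. The peak lists carry no expression values, so neither the level of LSD1 nor the identity of the cells could be checked in them.

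The C/EBP proteins are transcription factors that bind DNA as dimers through a basic leucine zipper, and they can pair with one another. In adipogenesis Cebpb and Cebpd are induced early, by agents that raise cAMP and by glucocorticoid, and they precede Cebpa, which together with Pparg keeps the adipocyte programme running. Cebpg forms dimers but lacks an activation domain, Cebpe acts in granulocytes, and Cebpz carries the name without a leucine zipper of this type. Lsd1, encoded by Kdm1a, is a histone demethylase that acts on methylated lysine 4 and, in some complexes, lysine 9 of histone H3.

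The member genes lie on 5 chromosomes. Cebpb spans chr2:167688915-167690432 on the plus strand (gene 12608) and Cebpd spans chr16:15887286-15889545 on the plus strand (gene 12609), each as 1 exon. Cebpa, also of 1 exon, spans chr7:35119293-35121928 on the plus strand (gene 12606), and Cebpg, of 2 exons, spans chr7:35046422-35056566 on the minus strand (gene 12611). These neighbours are 62726 bp apart, so their 30 kb windows do not overlap. Cebpe spans chr14:54710363-54712174 on the minus strand (gene 110794) with 2 exons, and Cebpz spans chr17:78919003-78937070 on the minus strand (gene 12607) with 16 exons.

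Stretches at the main peaks are shown. They are the 250 bases before the transcription start site (TSS) of the 4 members with a promoter peak of their own, and 240 bases around the summits of a region downstream of Cebpb and another downstream of Cebpa. The strongest promoter summits of Cebpb and Cebpa lay after the TSS, and the adipogenic Cebpd summit 502 bp before it. These summits are outside the printed promoters. The sequences are those of RefSeq on GRCm38.p6, the mm10 build, written 5′ to 3′. The promoters of Cebpb (chr2:167688665-167688914, plus strand), Cebpd (chr16:15887036-15887285, plus strand), Cebpa (chr7:35119043-35119292, plus strand) and Cebpg (chr7:35056567-35056816, minus strand) are written in the direction of transcription, and the downstream stretches of Cebpb (chr2:167694190-167694429) and Cebpa (chr7:35127045-35127284) on the plus strand. Capitals mark every match, on either strand, to one of 5 words: the cAMP response element TGACGTCA, the AP-1 site TGACTCA, the C/EBP palindrome TTGCGCAA, the E-box CAGCTG, and the GC box GGGCGG.
Cebpb promoter: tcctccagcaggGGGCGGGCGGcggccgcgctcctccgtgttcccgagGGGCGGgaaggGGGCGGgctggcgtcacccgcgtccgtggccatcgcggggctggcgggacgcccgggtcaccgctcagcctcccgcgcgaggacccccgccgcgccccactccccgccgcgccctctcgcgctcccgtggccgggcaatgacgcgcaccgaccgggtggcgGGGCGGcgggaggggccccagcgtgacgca
Cebpd promoter: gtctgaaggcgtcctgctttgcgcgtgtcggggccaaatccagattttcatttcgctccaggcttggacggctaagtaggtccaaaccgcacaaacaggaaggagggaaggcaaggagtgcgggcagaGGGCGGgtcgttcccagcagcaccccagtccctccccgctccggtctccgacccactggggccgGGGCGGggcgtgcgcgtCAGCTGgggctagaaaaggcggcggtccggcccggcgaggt
Cebpa promoter: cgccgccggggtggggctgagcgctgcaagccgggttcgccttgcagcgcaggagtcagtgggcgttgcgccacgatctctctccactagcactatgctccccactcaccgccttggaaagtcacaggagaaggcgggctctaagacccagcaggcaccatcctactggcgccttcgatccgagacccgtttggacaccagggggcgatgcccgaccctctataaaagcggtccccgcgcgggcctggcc
Cebpg promoter: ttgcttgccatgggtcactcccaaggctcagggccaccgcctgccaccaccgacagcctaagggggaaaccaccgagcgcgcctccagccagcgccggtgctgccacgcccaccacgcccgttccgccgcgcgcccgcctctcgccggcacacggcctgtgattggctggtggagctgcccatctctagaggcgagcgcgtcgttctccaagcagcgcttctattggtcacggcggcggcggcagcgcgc
Cebpb downstream: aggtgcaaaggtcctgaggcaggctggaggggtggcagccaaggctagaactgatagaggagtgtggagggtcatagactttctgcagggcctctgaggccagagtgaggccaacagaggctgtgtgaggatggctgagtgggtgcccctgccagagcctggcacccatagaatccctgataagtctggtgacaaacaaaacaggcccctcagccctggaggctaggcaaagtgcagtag
Cebpa downstream: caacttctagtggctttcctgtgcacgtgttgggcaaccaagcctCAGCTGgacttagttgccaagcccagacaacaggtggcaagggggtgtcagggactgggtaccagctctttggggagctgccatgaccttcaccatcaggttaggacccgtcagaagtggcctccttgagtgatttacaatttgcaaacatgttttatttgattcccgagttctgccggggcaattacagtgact

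The Cebpb promoter held 5 GC boxes, 2 of which overlapped, and the Cebpd promoter held 2 GC boxes and 1 E-box. None of the 5 words was found in the Cebpa or Cebpg promoter. Only exact matches were counted, so sites that vary from these words are neither marked nor excluded. Among the same 250 bases of 32851 RefSeq promoters, 32.7% held a GC box, 13.0% an E-box, 4.46% an AP-1 site, 1.55% a cAMP response element and 0.164% the C/EBP palindrome. The G+C content was 81.6% with 41 CpGs in the Cebpb promoter, 66.8% with 23 CpGs in Cebpd, 66.4% with 22 in Cebpa and 70.8% with 29 in Cebpg. The downstream stretch of Cebpb, in an intron of the noncoding gene A530013C23Rik, had 58.3% G+C and 0 CpGs. That of Cebpa, between genes, had 52.1% G+C, 4 CpGs and 1 E-box.

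All 6 members had a peak within 30 kb in the myogenic library, 4 had one in the adipogenic library (Cebpa, Cebpb, Cebpd and Cebpz) and 5 in the LSD1(OE) library (all but Cebpe). Over all 26180 genes, 71.6, 52.8 and 64.8% had such a peak in the myogenic, adipogenic and LSD1(OE) libraries. A peak was assigned by the closest TSS to its centre and called a promoter peak when that TSS lay at most 2000 bp away. By this rule Cebpa, Cebpb, Cebpd and Cebpg had a promoter peak in the myogenic and in the LSD1(OE) library, and Cebpb and Cebpd in the adipogenic library. The shares over all genes were 40.6, 23.3 and 32.4%. When a peak counted for every gene with a TSS within 2000 bp, Cebpz joined in all libraries and the members numbered 5, 3 and 5, beside 46.8, 27.0 and 37.3% of all genes. The libraries held 46155625, 63915769 and 55193310 ChIP tags after removal of duplicates, and a peak needed at least 27, 35 and 30 tags, and the adipogenic library, the deepest, listed the fewest peaks. With only the 18893 strongest peaks of each library, the members had 9 peaks in the myogenic, 14 in the adipogenic and 15 in the LSD1(OE) library, so the order of the myogenic and adipogenic libraries depends on how many peaks were listed.

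Cebpb, an early inducer of adipogenesis, had more peaks than any other member: 10 of the 22 myogenic, 10 of the 14 adipogenic and 15 of the 24 LSD1(OE) peaks lay around it. These covered 11542, 15309 and 24991 bp. Among 7590 genes with a span under 5 kb, the medians were 1, 0 and 1 peaks within 30 kb and the 95th percentiles 9, 5 and 8. The count at Cebpb exceeded that of 95.9, 99.3 and 99.5% of these genes. The windows also hold the TSSs of Tmem189, upstream, and of A530013C23Rik, just downstream, so not every peak need belong to Cebpb.

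**Figure D1:**
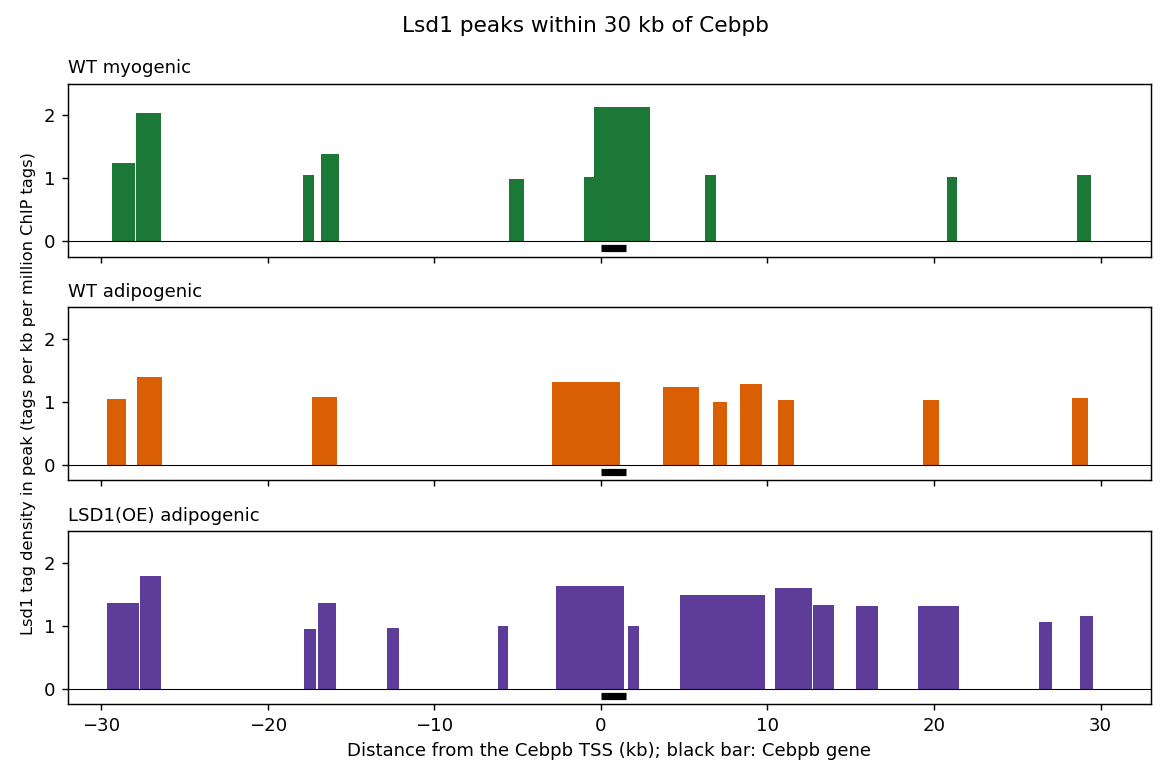
Lsd1 peaks within 30 kb of Cebpb, one panel a library; the x axis is the distance from the Cebpb TSS in kb and the height of each bar is the tag density of a peak in tags per kb per 1000000 ChIP tags. Downstream of the gene the myogenic library has 3 narrow peaks, the adipogenic library 6 and the LSD1(OE) library 7, which cover 2105, 7196 and 13958 bp.

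The strongest Cebpb peak lay over the gene and its promoter in all libraries. The score of a peak is 10 times −log10 of the p-value that MACS gave it over local background. Scores were computed after a scaling that differed between libraries, so they should be read within a library. The density of a peak is its ChIP tags per kb of called length per 1000000 ChIP tags, where a genome without enrichment would average 0.535. In the myogenic library the peak at chr2:167688516-167691873 held 331 tags, with a score of 1750.32 and a density of 2.14 (95% Poisson interval 1.91 to 2.38). In the adipogenic library the peak at chr2:167685994-167690051 held 342 tags, with a score of 610.81 and a density of 1.32 (1.18 to 1.47). In the LSD1(OE) library the peak at chr2:167686207-167690315 held 371 tags, with a score of 1478.72 and a density of 1.64 (1.47 to 1.81). Density was thus highest in the myogenic and lowest in the adipogenic library, and the intervals, which cover counting error only, did not overlap, though those of the adipogenic and LSD1(OE) libraries nearly met. These peaks were stronger by score than 99.3, 96.9 and 98.8% of all peaks of their libraries. The summits were close, at 165, 23 and 72 bp after the TSS, in the CpG-rich start of the gene with 47, 50 and 44 CpGs within 150 bp. The extents differed: the myogenic peak ran from 399 bp before to 2958 bp after the TSS, the adipogenic peak from 2921 bp before to 1136 bp after it, and the LSD1(OE) peak from 2708 bp before to 1400 bp after it. The centre of the myogenic peak, in the 3′ UTR of Cebpb, lay 565 bp from the TSS of A530013C23Rik, so by the nearest-TSS rule only a weak neighbouring peak of 28 tags and a score of 50.43 counted for Cebpb there.

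Taken over the whole promoter region, which in the myogenic and LSD1(OE) libraries also holds a second, weak peak, the density ratio of the adipogenic to the myogenic library was 0.671 (95% interval 0.577 to 0.780). That of LSD1(OE) to myogenic was 0.789 (0.683 to 0.912), and that of LSD1(OE) to adipogenic was 1.18 (1.02 to 1.36). For comparison, at 9107 regions with 1 peak in each library the medians were 0.785, 0.858 and 1.09, with central 90% ranges of 0.572 to 1.08, 0.610 to 1.24 and 0.840 to 1.44. The ratios at the Cebpb promoter lay inside these ranges.

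Downstream of Cebpb the order was another one. More than 2000 bp and up to 30 kb downstream, the myogenic library had 3 peaks with 101 tags, the adipogenic library 6 peaks with 523 tags, and the LSD1(OE) library 7 peaks with 1078 tags. These amount to 2.19, 8.18 and 19.5 tags per 1000000 ChIP tags, at densities of 1.04, 1.14 and 1.399. The covered lengths of 2105, 7196 and 13958 bp exceeded those of 79.7, 98.3 and 99.2% of genes with a span under 5 kb on their downstream side. Of such genes 2.37% had more adipogenic than myogenic peaks on that side, and 10.2% had more LSD1(OE) than myogenic peaks. These shares include genes without any peak there, the median covered length being 0 bp in each library, and the adipogenic list was the shortest. No other member or side was compared in this way, and this side was picked with its peaks in view. The percentages therefore describe it and test nothing. Only tags in listed peaks are counted, so a sum depends on how much was called as well as on the signal. By contrast, within 2000 bp of the TSS 7.78, 5.35 and 7.36 tags per 1000000 ChIP tags lay in peaks, and upstream 7.80, 4.77 and 8.24, where the adipogenic library was the lowest. Most of the upstream tags, 223 of 360, 202 of 305 and 266 of 455, lay at the promoter of Tmem189. The 3 myogenic downstream peaks were weak, with scores of 57.08, 50.63 and 75.81. None was left when the FDR was limited to 0.1% or when a score of 100 or more was required. The same held when the lists were cut to equal length. It also held when the score, divided by the scaling factor of its library, had to be 50 or more. Under these settings, chosen after the data were seen, the adipogenic library had 2, 2, 6 and 5 downstream peaks and the LSD1(OE) library 5 in each.

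**Figure D2:**
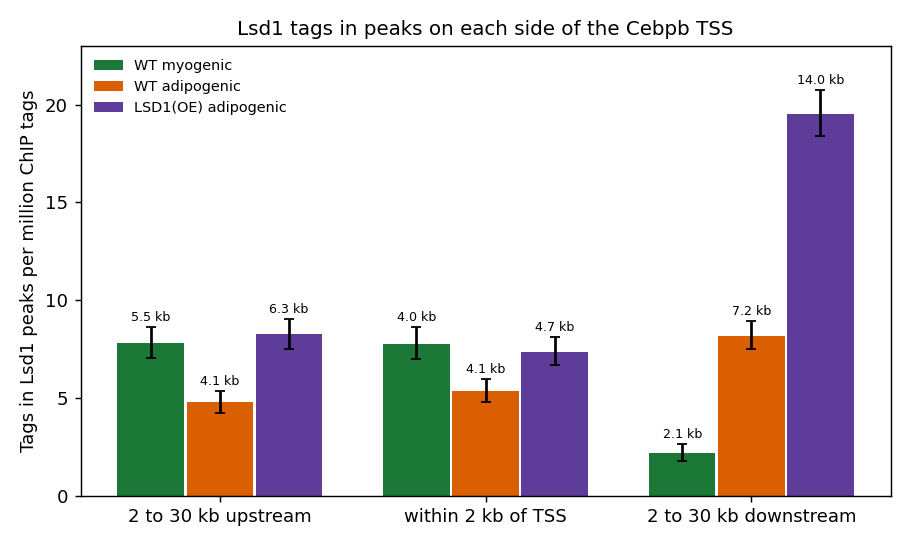
Tags in Lsd1 peaks per 1000000 ChIP tags on each side of the Cebpb TSS; bars are single libraries, error bars are 95% Poisson intervals for counting error, and the labels give the length covered by peaks. Downstream the values are 2.19, 8.18 and 19.5 in the order myogenic, adipogenic, LSD1(OE), while upstream and at the TSS the myogenic and LSD1(OE) bars are close.

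The largest downstream region ran from 3733 to 9857 bp after the TSS, over the noncoding gene A530013C23Rik. In the myogenic library it held 1 peak of 642 bp with 31 tags. In the adipogenic library it held 3 peaks with 333 tags, the strongest with 171 tags and a score of 272.32. In the LSD1(OE) library it was a single peak of 5112 bp with 420 tags and a score of 1311.90, above 98.5% of the peaks of that library. The strongest adipogenic summit and the LSD1(OE) summit lay 5371 and 5419 bp after the TSS, in the intronic stretch without CpG printed above, and the myogenic summit lay elsewhere, at 6477 bp.

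Next to it, 10477 to 12695 bp downstream, lay the one member region shared by the adipogenic and LSD1(OE) libraries alone, a pattern held by 2.45% of all regions. It had 64 tags in the adipogenic library, at a density of 1.03 (0.793 to 1.32), and 195 in the LSD1(OE) library, at 1.59 (1.38 to 1.83). The density ratio was 1.55 (1.16 to 2.08). No myogenic peak was listed there. Myogenic peaks of a length within 10% of the LSD1(OE) peak had at least 108 tags, and shorter ones were listed from 27 tags.

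Farther out, at 13389 and 16002 bp, the LSD1(OE) library had peaks of 94 and 97 tags with scores of 249.77 and 249.41 that the WT libraries did not list. Peaks of like length in the myogenic library had at least 54 and 55 tags, and in the adipogenic library at least 66 and 68. A region 19026 to 21481 bp downstream was shared by all libraries, with 28 tags in the myogenic, 61 in the adipogenic and 177 in the LSD1(OE) library over 599, 933 and 2456 bp. The densities there were 1.01, 1.02 and 1.31, and the LSD1(OE) peak was the longest. The density ratios of LSD1(OE) to adipogenic, 1.28 (0.949 to 1.74), and to myogenic, 1.29 (0.862 to 2.00), had intervals that include no difference. Without division by length these ratios were 3.36 and 5.29, above the intervals. A peak of 44 tags at 26678 bp was in the LSD1(OE) library alone. A further shared region at about 29 kb was alike in all libraries, with 42, 65 and 51 tags at densities of 1.05, 1.05 and 1.15 and intervals that overlapped.

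Upstream of Cebpb, the peaks between 26374 and 29670 bp before its TSS lay at the promoter of Tmem189. They held 223 tags in the myogenic, 202 in the adipogenic and 266 in the LSD1(OE) library. A region 15720 to 17888 bp before the TSS was also shared, with 98, 103 and 118 tags, and its E-box word occurred 3 times within 150 bp of the stronger summit in each library. The remaining upstream peaks, 1 in the myogenic and 2 in the LSD1(OE) library, had 34 to 39 tags and did not overlap one another.

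Cebpd, the other early inducer, had 1 strong peak, at its own promoter and exon. In the myogenic library it lay at chr16:15886298-15888510 with 224 tags, a score of 1226.03 and a density of 2.19 (1.92 to 2.4998). In the adipogenic library it lay at chr16:15886219-15888438 with 217 tags, a score of 496.27 and a density of 1.53 (1.33 to 1.75). In the LSD1(OE) library it lay at chr16:15886354-15888311 with 137 tags, a score of 323.08 and a density of 1.27 (1.06 to 1.499). The myogenic density was the highest, with an interval above those of both other libraries, and the intervals of the adipogenic and LSD1(OE) libraries overlapped. The scores exceeded those of 98.1, 95.1 and 82.1% of the peaks of the libraries.

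The adipogenic to myogenic ratio at the Cebpd promoter was 0.697 (0.576 to 0.844), above that of 27.5% of the shared regions. The LSD1(OE) to myogenic ratio was 0.578 (0.464 to 0.718), above that of 2.88% of them. The LSD1(OE) to adipogenic ratio was 0.829 (0.664 to 1.03), above that of 4.34%. The Cebpd promoter thus lay in the lower tail of the shared regions in both ratios that involve LSD1(OE), while the same ratios at the Cebpb promoter were closer to the medians. The other Cebpd peaks were weak: 28 tags at 19846 bp upstream in the myogenic library, nearest to Mzt2, and 34 tags at 8903 bp upstream in the LSD1(OE) library.

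**Figure D3:**
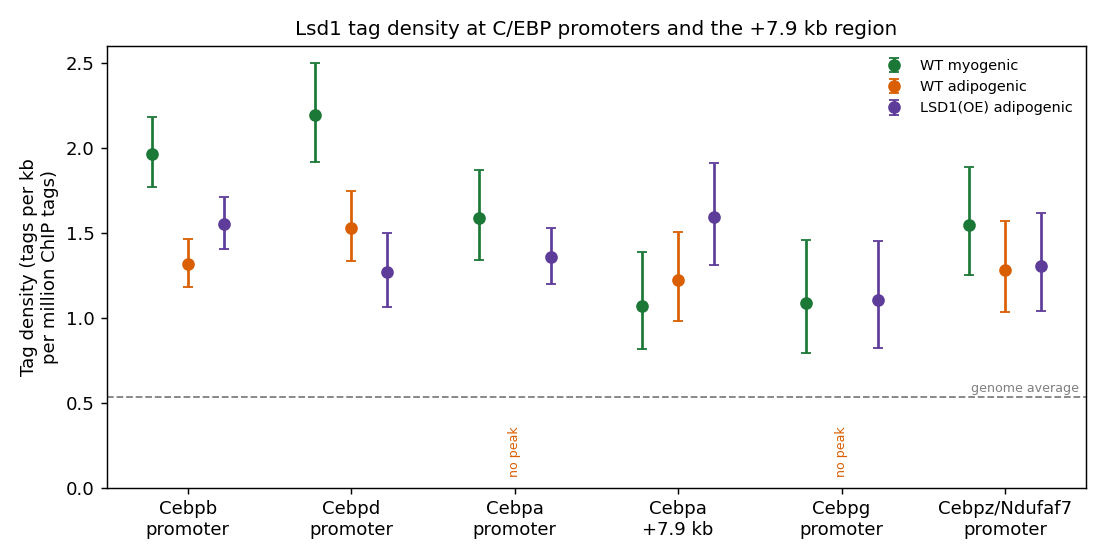
Lsd1 tag density at 5 promoter regions and at the region downstream of Cebpa in each library; points are tags per kb of called length per 1000000 ChIP tags, bars are 95% Poisson intervals for counting error, and the dashed line is the genome average of 0.535. The Cebpd density is 2.19, 1.53 and 1.27 in the myogenic, adipogenic and LSD1(OE) libraries, and no adipogenic peak is listed at the Cebpa or Cebpg promoter.

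Cebpa, which acts later in adipogenesis, had a promoter peak in the myogenic and LSD1(OE) libraries and none in the adipogenic library. In the myogenic library the peak at chr7:35117881-35119857 held 145 tags, with a score of 522.98 and a density of 1.59 (1.34 to 1.87), and its summit lay 62 bp after the TSS. In the LSD1(OE) library the peak at chr7:35118257-35121758 held 262 tags, with a score of 797.20 and a density of 1.36 (1.20 to 1.53), and its summit lay 733 bp after the TSS. The LSD1(OE) peak was the longer, 3502 against 1977 bp, and reached over the coding exon. The LSD1(OE) to myogenic density ratio was 0.853 (0.694 to 1.05), an interval that includes no difference. Without division by length this ratio was 1.51, above the interval. The comparison at the Cebpa promoter thus depends on whether tags are divided by the called length. The nearest adipogenic peak centre lay 7954 bp away. Adipogenic peaks of a length within 10% of the LSD1(OE) peak had at least 226 tags and a density of at least 1.096, and shorter ones were listed from 35 tags.

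A region between genes, 7100 to 8530 bp after the Cebpa TSS, was bound in all libraries. It held 58 tags in the myogenic library, at a density of 1.07 (0.813 to 1.38) and a score of 104.02. It held 90 tags in the adipogenic library, at 1.22 (0.983 to 1.502) and a score of 144.15, and 114 tags in the LSD1(OE) library, at 1.59 (1.31 to 1.91) and a score of 403.37. The order of these values was the reverse of that at the Cebpd promoter, but here the intervals of the libraries overlapped. The LSD1(OE) to myogenic ratio was 1.48 (1.07 to 2.07), above that of 99.3% of the shared regions. The adipogenic to myogenic ratio of 1.14 (0.811 to 1.62) was above that of 97.4%, but its interval includes no difference. The LSD1(OE) to adipogenic ratio was 1.30 (0.978 to 1.73), above that of 84.5%, and its interval includes no difference. The 3 summits lay 7793 to 7913 bp after the TSS, and each had 1 E-box within 150 bp, the one in capitals above. The myogenic peak of this region was weak, with a density above that of 22.6% of the peaks of its library. At the regions downstream of Cebpb with 1 peak in each library, the LSD1(OE) to myogenic ratio was above that of 96.6 and 86.3% of the shared regions. At the starts of Cebpz and Cebpd it was above that of 47.1 and 2.88%.

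The other Cebpa regions were 1 at 18571 to 19796 bp downstream, with 74 tags in the myogenic and 71 in the adipogenic library and no LSD1(OE) peak, and 1 with 51 tags 20329 bp upstream in the myogenic library alone. At the first of these the scores were 218.94 and 89.77, and LSD1(OE) peaks of like length had at least 60 tags. It was the only member region with a myogenic and an adipogenic but no LSD1(OE) peak, a pattern of 4.38% of all regions.

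**Figure D4:**
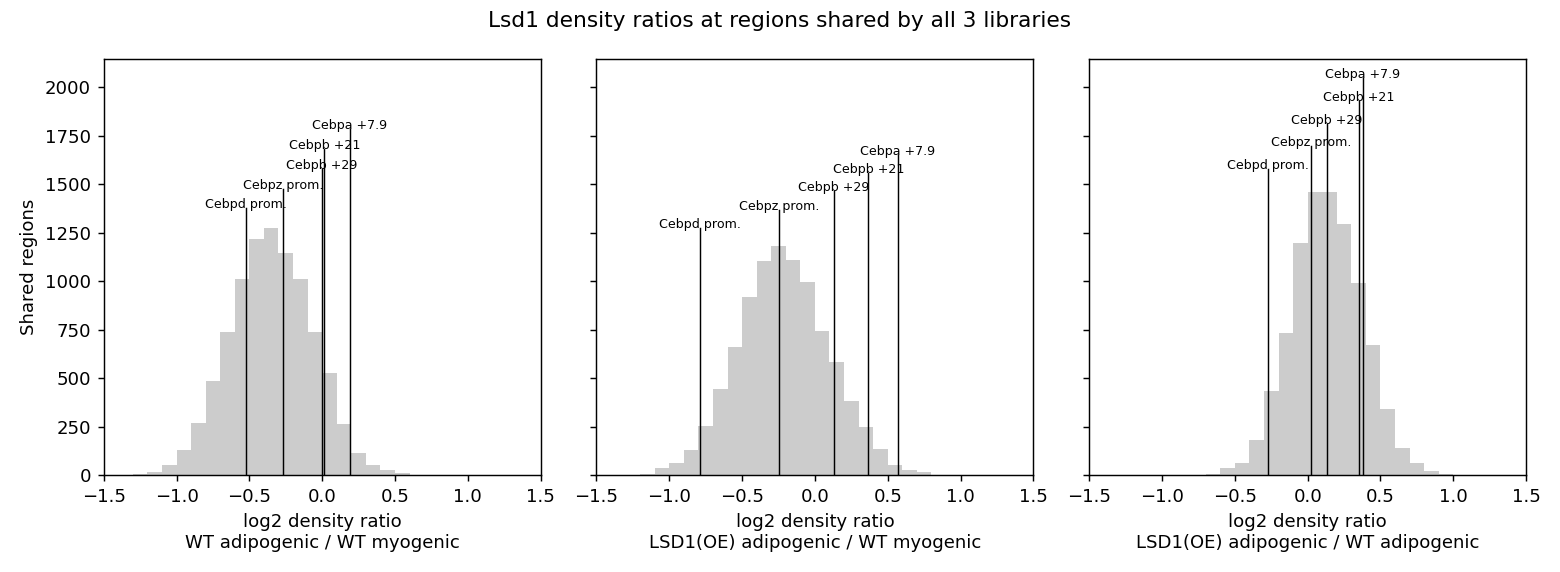
Distribution of the log2 density ratio between libraries over 9107 regions with 1 peak in each library (grey bars, number of regions per bin), with the 5 member regions of this kind as lines; the numbers beside Cebpa and Cebpb are kb from the TSS. The Cebpd promoter is left of the bulk in both LSD1(OE) ratios and the downstream Cebpa region is right of it in both ratios to the myogenic library.

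Cebpg, the partner without an activation domain, had a weak promoter peak in the same libraries as Cebpa. It held 45 tags in the myogenic library, at a density of 1.09 (0.795 to 1.46) and a score of 87.98, and 51 tags in the LSD1(OE) library, at 1.11 (0.823 to 1.45) and a score of 98.91. These did not differ beyond counting error. No adipogenic peak lay within 30 kb. Adipogenic peaks of like length had a density of at least 0.936, with a median of 1.02. The other Cebpg peaks were 1 in the myogenic library, in an intron of Pepd, and 2 in the LSD1(OE) library, all with 34 to 43 tags.

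Cebpe, the granulocyte factor, had no peak near its TSS in any library. Its 1 peak within 30 kb, of 71 tags in the myogenic library, lay 25544 bp away, over the starts of Acin1 and 1700123O20Rik. In the adipogenic and LSD1(OE) libraries the nearest peak centres were 70797 and 58388 bp from its TSS. The other TSS in its window, that of Gm29776, was not nearest to any member peak.

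At Cebpz, which is not a leucine zipper factor, the peak at the start of the gene also covered the start of the divergent gene Ndufaf7, to which the nearest-TSS rule gave it in all libraries. It held 96 tags in the myogenic, 93 in the adipogenic and 82 in the LSD1(OE) library, at densities of 1.55, 1.28 and 1.30 with intervals that overlapped. The scores were 316.13, 163.25 and 201.99. All density ratios between libraries had intervals that include no difference, and the adipogenic to myogenic ratio of 0.829 was above that of 60.9% of the shared regions. A peak at the start of Cebpzos, 52 tags in the myogenic and 59 in the LSD1(OE) library, and a myogenic peak of 31 tags 19388 bp upstream made up the rest. The TSS of Sult6b1, also in the window, was not nearest to any of these.

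**Figure D5:**
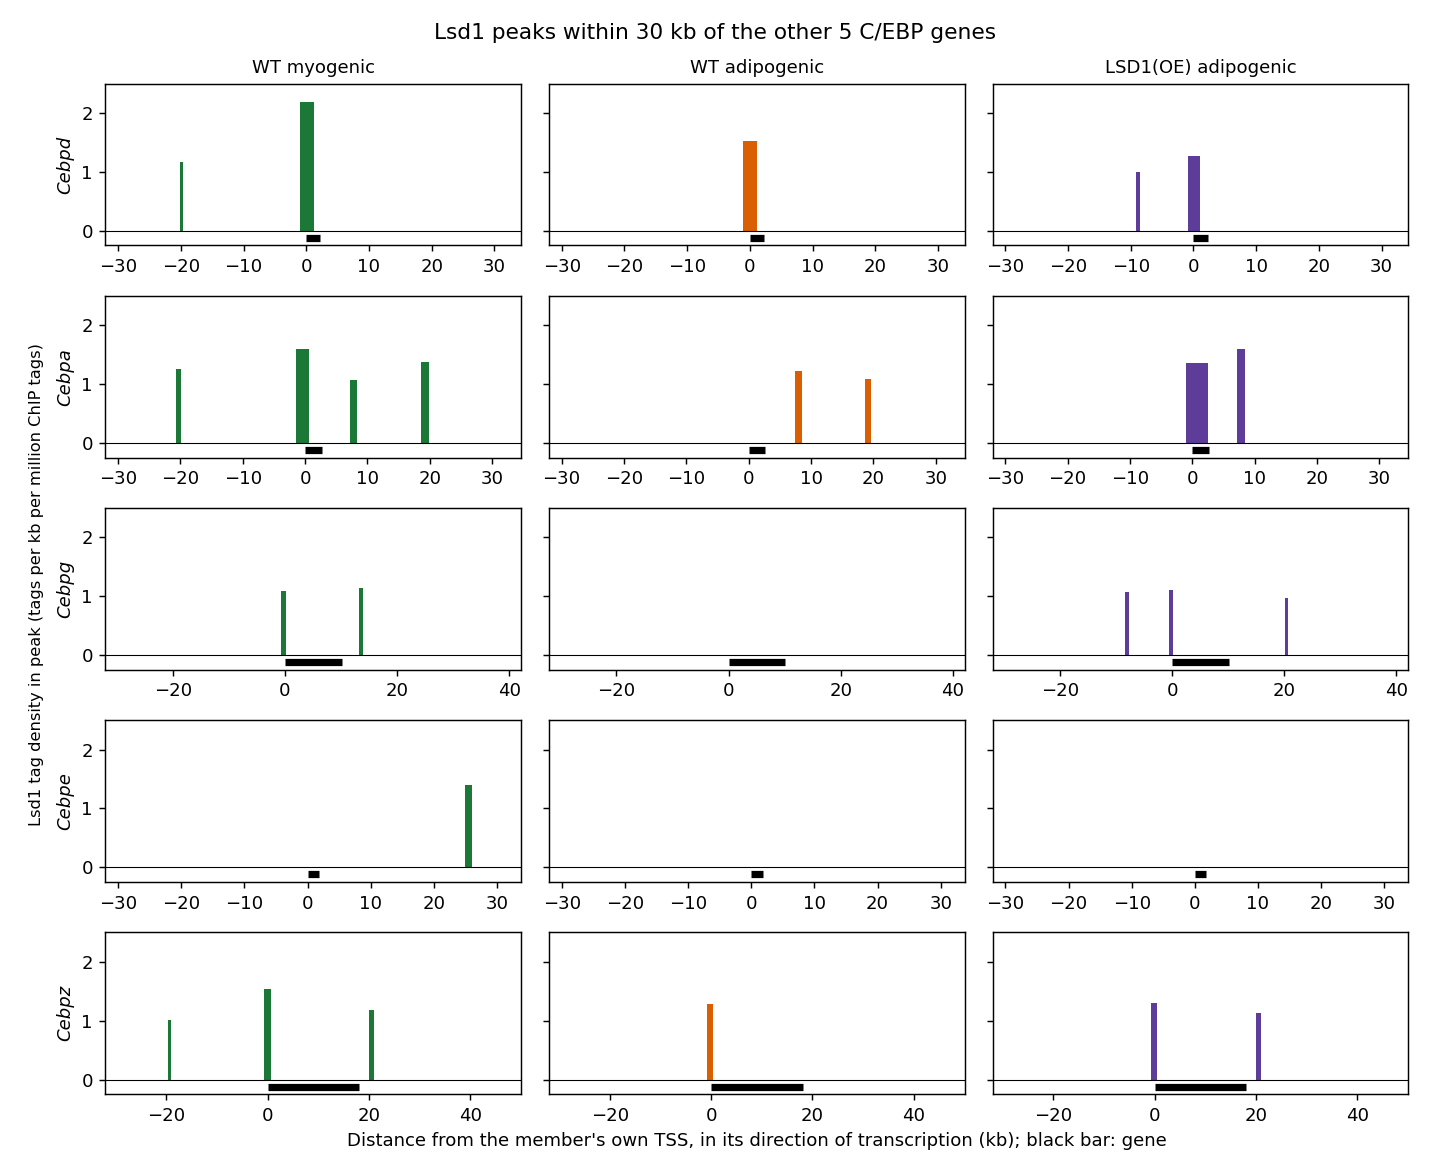
Lsd1 peaks within 30 kb of Cebpd, Cebpa, Cebpg, Cebpe and Cebpz (rows) in the myogenic, adipogenic and LSD1(OE) libraries (columns); the x axis is the distance from the TSS in kb in the direction of transcription and bar height is the tag density of a peak in tags per kb per 1000000 ChIP tags. The Cebpd promoter peak is in all 3 columns, the Cebpa and Cebpg promoter peaks are missing from the adipogenic column, and Cebpe has 1 peak in the myogenic column.

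Merging peaks that overlapped by at least 1 bp gave 28 member regions. Of these, 9 had a peak in all libraries, against 20.6% of all 56729 regions: 6 at Cebpb and 1 each at Cebpa, Cebpd and Cebpz. The myogenic library alone held 6, against 35.9% of all regions, 1 at each member. The LSD1(OE) library alone held 8, against 20.8%, of which 5 lay at Cebpb. The adipogenic library alone held 0, against 3.7%. The myogenic and LSD1(OE) libraries shared 3 that the adipogenic library lacked, against 12.2%, at the promoters of Cebpa, Cebpg and Cebpzos. With so few regions, which cluster at 1 gene, no more than the counts can be read from them.

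Within 150 bp of the summits of the member peaks, the E-box was found at 7 of 22 myogenic, 8 of 14 adipogenic and 8 of 24 LSD1(OE) peaks. It was found at 25.9, 29.3 and 25.96% of all peaks of these libraries. The AP-1 word was found at 3, 2 and 5 member peaks, beside 15.2, 16.5 and 14.3% of all peaks, and the GC box at 8, 4 and 6, beside 21.4, 26.2 and 20.99%. As exact words, the cAMP response element and the C/EBP palindrome were found at 0 member peaks. Over all peaks they were found at 0.887, 1.05 and 0.832% and at 0.0967, 0.222 and 0.143%. Variant sites were not sought. The same site counts in each library that binds it.

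Genes that act with the C/EBP family were described with a list of 47, of which 33 had a promoter peak in the myogenic, 25 in the adipogenic and 32 in the LSD1(OE) library, or 70.2, 53.2 and 68.1%, beside 40.6, 23.3 and 32.4% of all genes. Relatives with a leucine zipper, which include the dimer partners Ddit3 and Atf4, had a promoter peak in 6, 5 and 7 of 9 cases. Inducers of C/EBP genes, such as Creb1, which mediates cAMP signals, and the glucocorticoid receptor gene Nr3c1, had one in 9, 8 and 9 of 10. Genes that modulate C/EBP proteins, such as Trib1 and Gsk3b, had one in 12, 8 and 11 of 12. Targets of C/EBP factors had one in 6, 4 and 5 of 16, close to the shares of all genes. Fabp4, Adipoq, Lep, Plin1, Ucp1, Pck1, Agt, Csf3r and Elane had none in any library.

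Of the 47 genes, 24 had a promoter peak in all libraries, as did Cebpb and Cebpd and 19.1% of all genes. The pattern of Cebpa, a peak in the myogenic and LSD1(OE) libraries and none in the adipogenic, was held by 7, and by 9.17% of all genes. Among them Pparg, the partner of Cebpa in the adipocyte programme, had scores of 328.27 in the myogenic and 56.45 in the LSD1(OE) library, so that its LSD1(OE) peak was weak. G0s2, an inhibitor of lipolysis, had 182.95 and 238.61. Dbp had 325.15 and 131.83, Stat5a 151.53 and 115.75, Fbxw7 61.33 and 59.66, and Hdac1 374.68 and 86.15. In the 24 with the pattern of Cebpb, scores ran from 55.35 at Il6 to 2991.55 at Trib1 in the myogenic library, from 59.98 at Zfp423 to 2168.09 at Trib1 in the adipogenic library, and from 73.78 at Trib3 to 3100 at Trib1 in the LSD1(OE) library. Trib1, which promotes the breakdown of Cebpa protein, thus had the highest score of the list in each library.

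The genes whose promoter scores over the 3 libraries were most like those of each member, by Euclidean distance of log2(1 + score), were Ipmk, Syne3 and Calcoco1 for Cebpd, with distances of 0.17 to 0.34. They were Carmn, Gm15270 and Rpl41 for Cebpa, with 0.14 to 0.29, and Chic2, Rem1 and Rfc4 for Cebpg, with 0.04 to 0.07. For Cebpb they were Ppl, Anxa9 and Rufy3, with 0.81 to 1.33. There the myogenic score was that of the weak peak of 50.43, and 1 gene lay within a distance of 1, against 188 for Cebpd, 69 for Cebpa and 615 for Cebpg.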

How the data were processed

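Lsd1 ChIP-seq of C2C12 cells (1 ChIP and 1 input library per condition) was analysed from the deposited peak lists. The authors mapped 50 bp reads to mm10 and called peaks for each ChIP against its own input with MACS at a p cut-off of 1e-05. The file header gives MACS 1.4.2 and the submitters' processing notes give MACS 1.41 and Bowtie2. The labels give 3 days of adipogenic induction and the methods 2. The deposited tag count of a peak is without normalization. The score, deposited as 10 times −log10 of p, was computed in the authors' run of MACS after scaling ChIP tags up to the input by 1.90, 1.28 and 1.82. Scores are therefore not on 1 scale between libraries. Divided by these factors, the scores at the start of Cebpz were 166.7, 127.9 and 110.7, in place of 316.13, 163.25 and 201.99. Fold enrichment was deposited too but differs in scale between libraries, and it was not used. The deposited FDR, in percent, was at most 0.37, 0.73 and 0.44, under the 1% limit of the methods. Peaks took up 7.12, 3.20 and 5.28% of ChIP tags.

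TSSs and spans were those of curated RefSeq transcripts of GRCm38.p6 (31647 TSSs). Densities have exact 95% Poisson intervals and ratios exact binomial (Clopper-Pearson) ones, which cover counting error only. Replicates were lacking, so no test between conditions was made. All 6 members are named with every peak, along with genes whose TSS lies in the windows or nearest to a member peak, listed genes with the pattern of Cebpa or Cebpb (1 is not reported here by name), and the 3 genes most like each member. Members and lists were chosen with earlier results of these data known. Alternatives were other peak filters, windows, annotations, overlaps and scalings. The steps were tested on simulated data. Python 3.11.15, NumPy 2.4.6, pandas 2.3.3, SciPy 1.17.1 and Matplotlib 3.10.9 were used.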

Additional observations from a re-analysis of the deposited data

How the results depend on the processing

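Each condition has 1 library, so nothing was recomputed without a replicate, and no paired analysis was possible because the labels give no second replicate. Of 24 alternatives for the peaks within 30 kb 8 stayed within 1.5 times the reported count. So did 23 of 27 for members with a promoter peak, 9 of 15 for regions and 6 of 12 for the peaks downstream of Cebpb. Density ratios were recomputed only at the starts of Cebpb, Cebpd and Cebpz and at the region downstream of Cebpa shared by all libraries. Of these 36 alternatives 31 stayed inside the interval. The alternatives that moved follow. Peaks within 30 kb in the myogenic, adipogenic and LSD1(OE) libraries numbered 11, 8 and 13 when the FDR was limited to 0.1%, 12, 8 and 14 at scores of 100 or more, 11, 8 and 12 in a 10 kb window, and 57, 43 and 62 in a 100 kb window, each peak counted once. They numbered 9 in the myogenic and 15 in the LSD1(OE) library at equal peak numbers. With scores of 50 or more after division by the scaling factors they numbered 12 and 15, the listed peaks being filtered and not called anew. Under these 4 filters 2 members (Cebpa and Cebpd) had a myogenic promoter peak, since the strong myogenic Cebpb peak is assigned to A530013C23Rik and the Cebpg peak is weak. By GENCODE TSSs, 3 members had an LSD1(OE) promoter peak, without Cebpa. With lists of equal length the member regions numbered 17, of which 5 were in all libraries, 1 in the myogenic, 1 in the adipogenic and 4 in the LSD1(OE) library alone. With regions joined by summits within 500 bp, 3 were in the adipogenic library alone. Downstream of Cebpb, the 4 filters left 0 myogenic peaks, and the limit on FDR and that on score left 2 adipogenic peaks each. Scaled to a median ratio of 1 at strong shared peaks, the adipogenic to myogenic ratio was 0.854 at the Cebpb and 0.888 at the Cebpd promoter, and the LSD1(OE) to myogenic ratio at Cebpb was 0.913. By tags per peak with no division by length, the LSD1(OE) ratios at the Cebpb promoter were 0.946 to myogenic and 1.37 to adipogenic. Ratios at regions outside the count were less uniform by this measure. At the largest region downstream of Cebpb, LSD1(OE) to myogenic was 11.3, outside its interval of 0.987 to 2.12. At the Cebpg promoter it was 0.948, inside its interval.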

Other observations

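Between 30 and 100 kb from the span of Cebpb the myogenic library had 25 peaks covering 31083 bp, the adipogenic library 25 covering 43557 bp and the LSD1(OE) library 30 covering 68099 bp. They held 2142, 3989 and 6300 tags, not divided by library size. Over 7590 genes with a span under 5 kb the medians at these distances were 2, 1 and 1 peaks and the 95th percentiles 16, 8 and 13. The count around Cebpb exceeded that of 99.2, 99.99 and 99.97% of these genes, so peaks were dense well beyond its downstream side. The longest peak at these distances from Cebpb was an LSD1(OE) peak of 12606 bp with 1261 tags, centred 76.38 kb downstream. Cebpd had no peak at these distances in any library. Around Cebpe the same distances held 2, 1 and 2 peaks and around Cebpz 4, 1 and 4, with 50 to 235 tags in all. The windows of Cebpa and Cebpg overlap at these distances and hold each other's promoter peaks.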
